A study of Bos taurus with 4 samples.

Results

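TMEM178B, ANO2, GSG1L and ARHGAP15 are 4 long genes along which the ATAC-seq lists of butyrate-treated and untreated rumen epithelial primary cells (REPC) diverged. The genes were chosen by a value measured in these same libraries, the number of regions that both libraries of the pair named BT listed and neither library of the pair named Control did. They make up 4 of the 24886 gene names in the deposited table, and 134 of its 362102 listed intervals name them, merged here where they overlapped into 57 of 115970 regions. Because the choice used the contrast between the pairs, the values below describe that contrast at these genes and do not test it.

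ATAC-seq measures open chromatin by the places where a transposase can insert sequencing adapters. The cells came from the rumen of 1 Holstein bull calf, aged 2 weeks and fed milk replacer only, and the treatment of the study was 5 mM butyrate in the culture medium for 24 h. The 4 libraries form 2 pairs of 2, named BT and Control in the deposited table and in the sample descriptions, whereas the sample titles and the treatment field give the opposite assignment. The pairs are therefore called BT-named and Control-named after the names that the values carry, so that the direction of every difference below depends on which label is right. The study calls the 2 libraries of a pair biological replicates, but neither it nor the labels say whether they came from separate cultures.

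Butyrate, a short-chain fatty acid that rumen microbes produce, inhibits histone deacetylases, enzymes that remove acetyl groups from histones. Open chromatin inside long genes, away from their starts, often marks enhancers, which can act on the host gene or on others at a distance. The 4 genes are known from different processes. ANO2 encodes an anoctamin, a calcium-activated chloride channel known in mouse olfactory neurons and photoreceptors. GSG1L encodes an auxiliary subunit of AMPA-type glutamate receptors, described in rat and mouse brain. ARHGAP15 encodes a GTPase activating protein for Rac, known from blood cells. TMEM178B encodes a multi-pass membrane protein whose role is little described.

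The libraries listed 83391 and 84808 intervals (BT-named) against 94941 and 98962 (Control-named), covering 36021727 and 36252163 bp against 42883868 and 44747957 bp, with a lowest peak value of 21 or 22 in each. A peak value is the signal at the summit of an interval, and an average value is the mean signal over it. No source used here states how the authors scaled the libraries to each other. The study's mapping summary gives unequal read depths for them, which were not used here, and their part in the results was not tested. A library that does not list a region can still have signal there, below the limit for listing. Of 10 markers of basal and stratified epithelium, 6 had a promoter (a summit within 1 kb of the gene start) listed in all 4 libraries, among them KRT5 and KRT14, while those of TP63, LAMB3 and CDH1 were in no list. Summed over that list, promoter peak values were 522 and 640 in BT-named against 699 and 794 in Control-named libraries. Among markers of other cell types, 2 of 8 fibroblast and mesenchymal, 3 of 8 immune, 1 of 4 endothelial and 4 of 6 neuronal promoters were listed in all 4. Their summed peak values in BT-named against Control-named libraries were 348 and 386 against 278 and 428, 189 and 228 against 356 and 442, 48 and 36 against 52 and 51, and 523 and 513 against 401 and 474. Among the immune markers, the promoters of PTPRC, CD3E and CD3D were in no list. Those of SPI1, LCP1 and CORO1A were listed in all 4 libraries, and that of CD68 in the Control-named libraries only (93 and 132). Also in the Control-named libraries only were the promoters of COL17A1 (54 and 68) in the epithelial list and of DCN (41 and 37) and PRRX1 (47 and 78) in the mesenchymal list. No marker promoter was in both BT-named libraries only. Some were higher in the BT-named libraries, among them that of KRT14 (148 and 172 against 43 and 59). The part of other cell types in the results below was not tested.

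The 4 genes together held 19 regions listed in both BT-named libraries only, 7 listed in both Control-named libraries only, 13 listed in all 4 and 18 in other combinations. The first class made up 33.3% of their regions, against 4.51% of all merged regions, a share that follows from how the genes were chosen. The second made up 12.3%, against 13.1% of all regions, and the class shared by all 4 libraries made up 22.8%, against 56.8%. TMEM178B, ANO2 and GSG1L leaned to the BT-named side, with 5, 5 and 4 BT-only regions against 0, 0 and 1 Control-only regions. ARHGAP15 did not: its 5 BT-only regions stood beside 6 Control-only regions, so that it was rich in regions of both kinds. These counts rested on low peaks. When only intervals with a peak value of at least 40 were used, there were 5 BT-only regions, 2 at TMEM178B, 2 at ANO2, 1 at GSG1L and 0 at ARHGAP15, against 5 Control-only regions, 4 of them at ARHGAP15. Over all regions at that limit, 4.25% were BT-only and 14.5% Control-only, little changed from the shares without it.

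**Figure D1:**
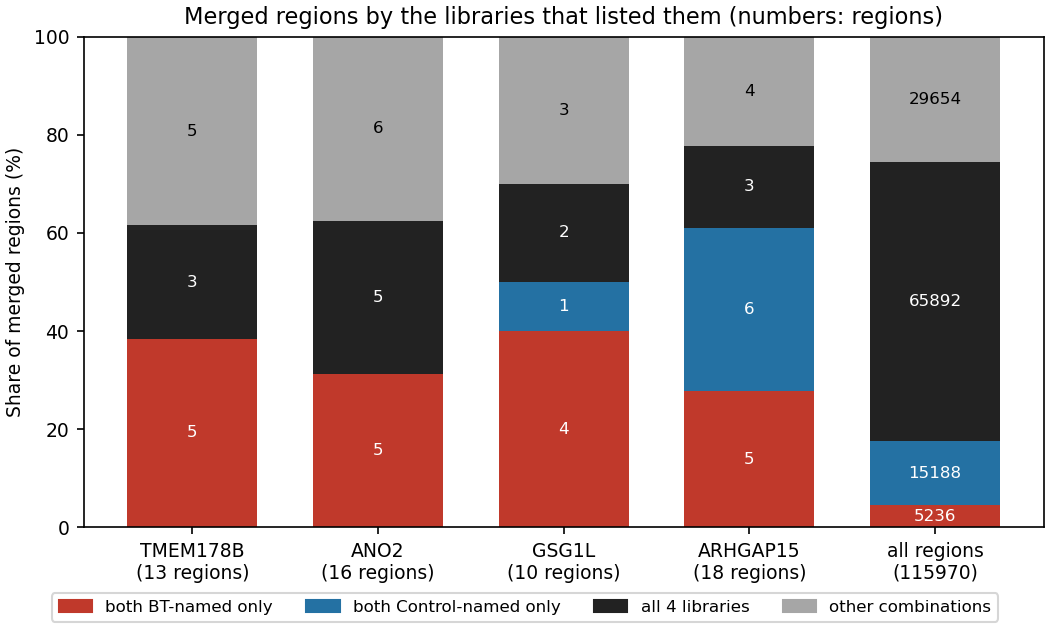
Share of merged regions (%) by the libraries that listed them, for each of the 4 genes and for all regions, with the number of regions in each part. The part listed by both BT-named libraries only makes up 27.8% to 40% of the regions of each gene and 4.51% of all regions, and ARHGAP15 alone of the 4 has more Control-only (6) than BT-only (5) regions.

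**Figure D2:**
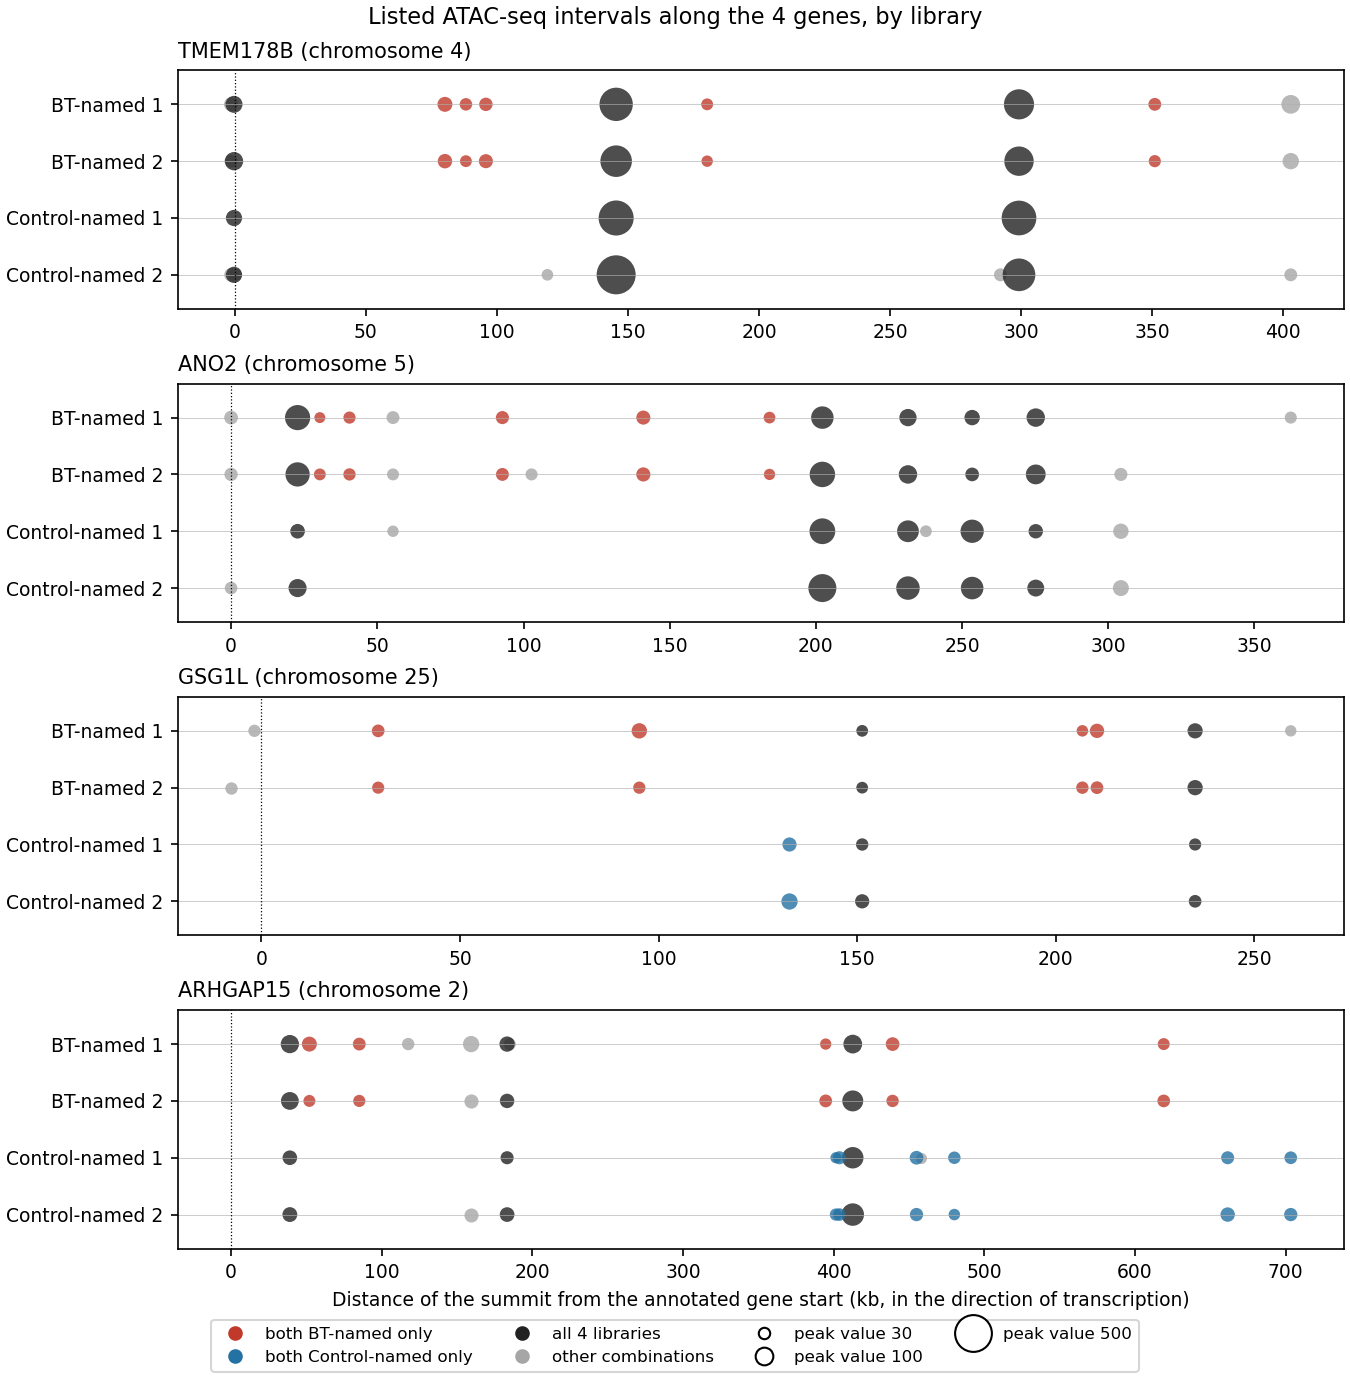
Listed intervals along TMEM178B, ANO2, GSG1L and ARHGAP15, with 1 row for each library and the distance of the summit from the annotated gene start in kb. Colour gives the class of the merged region and area grows with the peak value. The BT-only regions are small points well inside the genes, and the Control-only regions of ARHGAP15 lie 401.5 kb or more from its start.

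The BT-only regions of the 4 genes were alike in position. They are set here beside the 3204 of all 5236 BT-only regions that name a gene, since a region had to name a gene to be among them. All 19 lay inside the gene and none was a promoter, whereas 72.1% of the gene-naming BT-only regions lay inside a gene and 9.68% were promoters. A gene chosen for several such regions can hold few of them at its start, so this contrast follows in part from the choice. None of the 19 held an annotated CpG island, against 8.90% of the gene-naming ones. With only 19 regions, 0 is near that share, so nothing is read from it. Their median length was 336 bp and the median of their highest peak value was 43, against 321.5 bp and 51. They were low, since the highest of any library was 71 and the lowest listed value anywhere was 21.

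The 19 regions also lay far from shared ones. None was within 1 kb of a region listed in all 4 libraries, against 12.7% of the gene-naming BT-only regions, and the nearest such region was 7024 to 206013 bp away (median 45735 bp, against 8329.5 bp). The 7 Control-only regions of the 4 genes were no nearer, with 0 within 1 kb and a median of 41885 bp, against 5926.5 bp over the gene-naming Control-only regions. Genes chosen as rich in BT-only regions held few shared ones (22.8% against 56.8%), so these contrasts follow in part from the choice. The gene-naming regions also include promoters and regions outside genes, unlike the 19. To the nearest region of their own class the 19 had a median of 42763 bp, against 132038 bp, which follows from choosing genes with several such regions. The nearest interval of either Control-named library lay 6494 to 60641 bp away, with a median of 30835 bp. Between the BT-named replicates, the higher peak value was 1.16 times the lower at the median region, the same as over all 5236 BT-only regions, and 1.89 times at most. BT-named replicate 1 had the higher value in 12 of the 19 and replicate 2 in 7. Over all 5236 BT-only regions the lean was the other way, with replicate 1 higher in 2293, replicate 2 in 2743 and 200 equal. The largest ratio over all of them was 2.66.

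**Figure D3:**
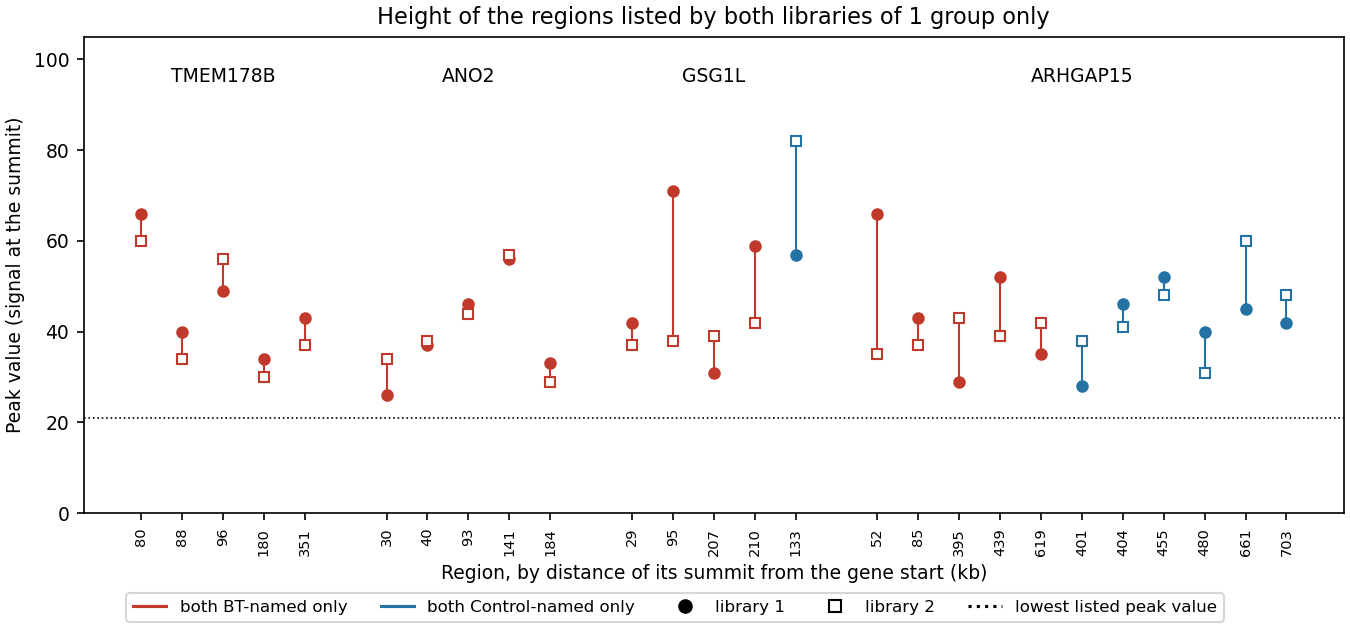
Peak value (signal at the summit) in library 1 and library 2 for each region listed by both libraries of 1 group only, by gene and by distance of the summit from the gene start in kb. All 19 BT-only and 7 Control-only regions reach between 26 and 82, above the lowest listed peak value of 21.

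TMEM178B, on chromosome 4 (UMD3.1 coordinates are used throughout), had 13 regions over 404.8 kb. Its start was open in every library. A region with CpG islands at 105152052 to 105152493, just upstream of the start by its tallest summit, had average values of 65.9 and 75.2 in BT-named against 56.1 and 58.3 in Control-named libraries. The groups did not overlap there, with means of 70.6 ± 6.57 and 57.2 ± 1.55 (SD, n = 2 each). Of the flanking regions, that at -1.4 kb was listed in 3 libraries and that at 0.4 kb in Control-named replicate 2 alone.

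Inside TMEM178B, 3 of the 5 BT-only regions lay close together, at 80.2, 88.2 and 95.8 kb from the start, with gaps of 7.66 and 7.28 kb. The first of them, at 105232506 to 105232908, was the tallest, with peak values of 66 and 60 in the BT-named libraries, and the third, at 105248121 to 105248572, had 49 and 56. The middle one had 40 and 34. The other 2 stood alone at 180.2 kb (34 and 30) and 351.0 kb (43 and 37). Between the group of 3 and these lay a tall region at 145.5 kb that every library listed, at 105297747 to 105298297, where the average values were 214.5 and 207.0 in BT-named against 248.7 and 312.8 in Control-named libraries. The authors' annotation also names the transfer RNA gene TRNAC-GCA at this region, 3171 bp from its start. A second tall region at 299.2 kb had 181.9 and 173.6 against 243.6 and 215.6. At both tall regions each BT-named library was below each Control-named library, with a log2 difference of -0.40 ± 0.13 and -0.37 ± 0.13 (BT-named minus Control-named, SE). The TMEM178B intervals numbered 10 and 10 in the BT-named libraries against 3 and 8 in the Control-named libraries, so the Control-named replicates differed here by more than the BT-named ones. If Control-named replicate 1 is left out, TMEM178B has 3 Control-only regions and 5 BT-only regions.

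ANO2, on chromosome 5, had 16 regions over 362.8 kb. Its start, next to the far end of VWF (the gene of von Willebrand factor), carried a CpG island and had peak values of 52 and 48 in the BT-named libraries, against 41 in Control-named replicate 2 and no listing in replicate 1. The gene then divided into a proximal stretch with the BT-only regions and a distal one with most of the shared regions. All 5 BT-only regions lay between 30.3 and 184.2 kb from the start, and 4 of the 5 shared regions lay between 202.2 and 275.2 kb. The tallest of the BT-only regions was at 141.0 kb (104871230 to 104871624), with peak values of 56 and 57, followed by one at 92.8 kb with 46 and 44 and one at 40.5 kb with 37 and 38. Merged only where intervals overlapped by at least 100 bp, ANO2 had 4 BT-only regions, since at 30.3 kb the intervals of the BT-named libraries, with peak values of 26 and 34, overlapped by less than that.

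The shared regions of ANO2 went in opposite directions. At 22.7 kb, 104752675 to 104753409, the average values were 137.5 and 108.9 in BT-named against 47.5 and 67.2 in Control-named libraries, or 123.2 ± 20.2 against 57.4 ± 13.9 (SD, n = 2 each). That is a 2.15-fold higher mean, and the log2 difference of 1.10 ± 0.17 (SE) was the largest positive one at any of the 4 genes. At 253.5 kb, 104983596 to 104984425, the values were 50.7 and 42.4 in BT-named against 113.9 and 103.8 in Control-named libraries, with means of 46.5 ± 5.88 against 108.9 ± 7.10 (SD, n = 2 each). The log2 difference there, -1.21 ± 0.18 (SE), was the largest negative one. The neighbours on either side differed again. The one at 231.5 kb was lower in BT-named libraries (61.8 and 70.9 against 102.3 and 118.1), whereas the one at 275.2 kb was higher (71.1 and 83.9 against 43.2 and 58.1). The shared region with the highest mean, at 202.2 kb, had overlapping groups, with 111.5 and 129.7 in BT-named against 123.1 and 160.9 in Control-named libraries.

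GSG1L, on chromosome 25, had 10 regions over 267.1 kb, the fewest of the 4. No region was listed within 1 kb of its start. The 2 regions upstream, at -1.7 and -7.6 kb, were each listed by 1 BT-named library only, with peak values of 38 and 39. Its 4 BT-only regions spread along the gene, at 29.4, 95.2, 206.7 and 210.4 kb, and the last pair was 3.31 kb apart, the smallest gap between BT-only regions at any of the 4 genes. The region at 95.2 kb, 25757257 to 25757612, had peak values of 71 and 38, so it was tall in BT-named replicate 1 only. At 210.4 kb the values were 59 and 42, and at 29.4 kb they were 42 and 37.

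The only Control-only region of GSG1L, at 132.8 kb, had peak values of 57 and 82, a higher mean than at any of its BT-only regions. Both shared regions of GSG1L were low. The one at 235.1 kb, 25617242 to 25617670, had average values of 50.4 and 45.6 in BT-named against 27.4 and 33.3 in Control-named libraries. That is 48.0 ± 3.34 against 30.3 ± 4.14 (SD, n = 2 each), 1.58-fold higher, with no overlap between the groups. The one at 151.3 kb had 26.9 and 27.1 in BT-named against 29.1 and 42.2 in Control-named libraries.

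ARHGAP15, on chromosome 2, had 18 regions over 664.7 kb, and the region nearest to its start lay 39.0 kb inside the gene. The BT-only and Control-only regions were unevenly placed. In its proximal part lay 2 BT-only regions, at 52.0 and 85.1 kb, and no Control-only region. In its distal part both kinds were interspersed. The other 3 BT-only regions lay at 394.7, 439.1 and 619.0 kb, and the 6 Control-only regions at 401.5, 403.8, 455.0, 480.1, 661.5 and 703.4 kb, the last of them downstream of the gene. The 2 kinds came as near as 6494 bp, between 394.7 and 401.5 kb. The tallest BT-only region, at 52.0 kb (53712812 to 53713147), had peak values of 66 and 35, the largest ratio between replicates at any BT-only region here, with 71 and 38 at 95.2 kb of GSG1L close behind. The region at 439.1 kb had 52 and 39, that at 85.1 kb had 43 and 37, and the tallest Control-only region, at 661.5 kb, had 45 and 60.

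Signal in the shared regions of ARHGAP15 differed along the gene as well. At 39.0 kb, 53725719 to 53726120, the average values were 71.4 and 67.2 in BT-named against 42.8 and 43.9 in Control-named libraries, a 1.60-fold difference of means with a log2 difference of 0.66 ± 0.19 (SE). At 183.2 kb they were 44.1 and 41.5 against 32.1 and 40.2. At 412.6 kb, 53352043 to 53352478, where the peak was tallest for this gene, the order turned, with 72.2 and 93.0 in BT-named against 96.5 and 106.1 in Control-named libraries. The ARHGAP15 intervals numbered 11 and 9 in the BT-named libraries against 10 and 10 in the Control-named libraries, so their number was alike in both groups.

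Over the 13 shared regions of the 4 genes, the median log2 difference was -0.23, against -0.24 over all 65892 regions that every library listed. Every BT-named value was above every Control-named value in 6 of the 13 and below in 6, against 15.9% and 54.4% of all shared regions. In a limma fit over all shared regions, at an adjusted p threshold of 0.05, 4 of the 13 were called higher, against 6.90% of all, and 4 lower, against 39.4%. Called higher were the regions at 22.7 and 275.2 kb of ANO2, at 235.1 kb of GSG1L and at 39.0 kb of ARHGAP15. Called lower were those at 231.5 and 253.5 kb of ANO2 and at 145.5 and 299.2 kb of TMEM178B. Nothing is read from these counts, since the same contrast chose the genes.

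The direction of several of these values rested on scaling. Median centring of the libraries moved the median of all shared regions to 0.13 and the calls at the 4 genes to 6 higher (30.2% of all) and 2 lower (20.4%). After centring, the 2 tall regions of TMEM178B stood at -0.042 and -0.0044, and its start at 0.66. At ANO2 the values after centring were 1.46 at 22.7 kb, 0.98 at 275.2 kb, -0.85 at 253.5 kb and -0.36 at 231.5 kb, while 202.2 kb turned to 0.14. The region at 231.5 kb lost its call under quantile normalization (-0.35). Leaving out single libraries moved values too. Without Control-named replicate 1, 275.2 kb of ANO2 went from 0.62 to 0.41 and 235.1 kb of GSG1L from 0.65 to 0.52. The 145.5 and 299.2 kb regions of TMEM178B stood at -0.43 and -0.40 without BT-named replicate 1, and at -0.38 and -0.33 without BT-named replicate 2. The region at 299.2 kb stood at -0.28 without Control-named replicate 1, and that at 145.5 kb at -0.24 without Control-named replicate 2. At 275.2 kb of ANO2 the difference was 0.50 without BT-named replicate 2. These fits left 1 library in a group, so no calls are given for them.

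**Figure D4:**
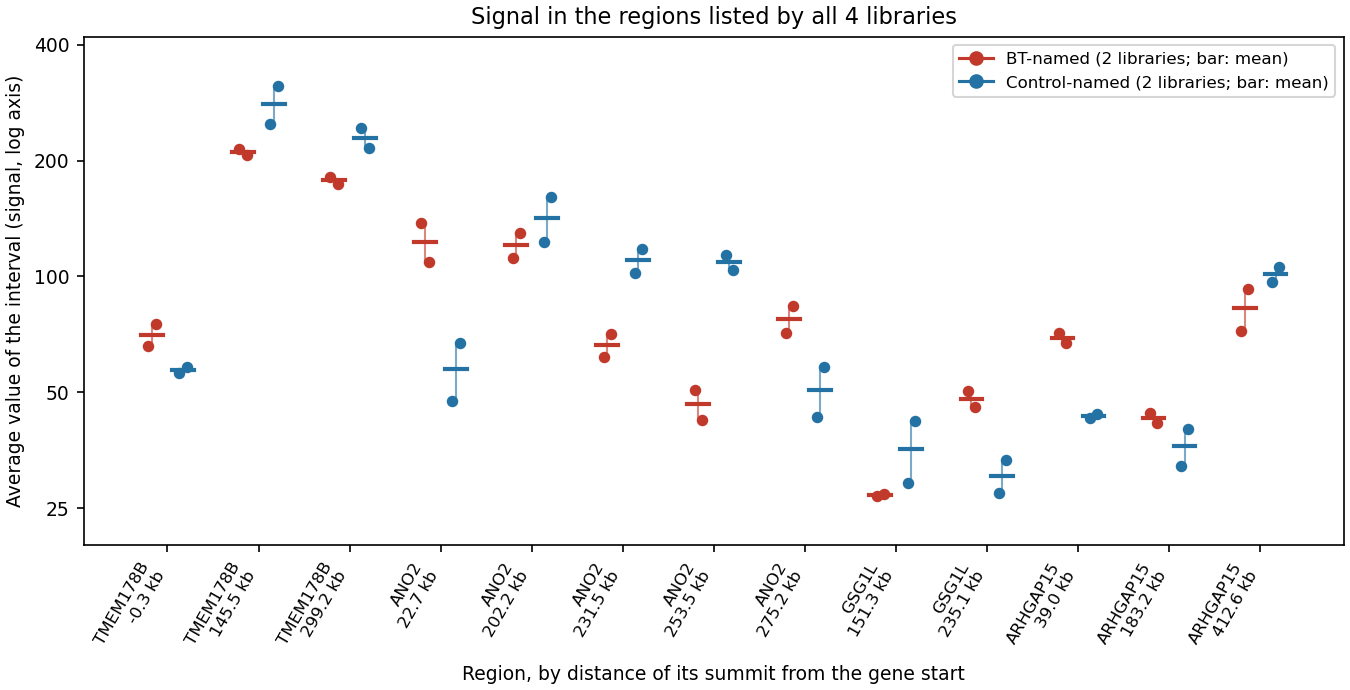
Average value of the interval (signal, log axis) in each library for the 13 regions listed by all 4 libraries, labelled by gene and by distance of the summit from the gene start. Points are libraries and bars are group means. The 2 groups overlap at 202.2 kb of ANO2 and are apart at the other 12 regions, in 6 of them with the BT-named libraries above. Of all shared regions, 15.9% have the BT-named libraries above and 54.4% have them below.

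**Figure D5:**
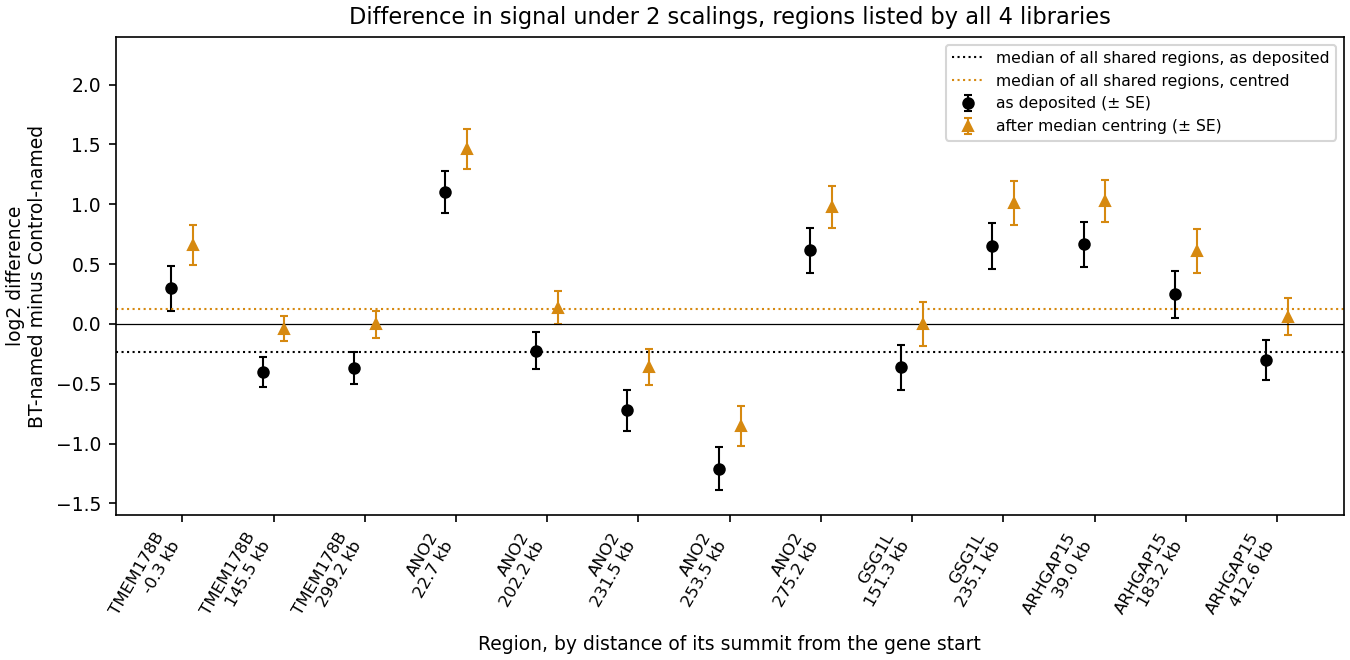
The log2 difference in average value, BT-named minus Control-named, with its SE, for the same 13 regions as deposited and after median centring, with dotted lines for the median of all shared regions (-0.24 and 0.13). Centring lifts every point by a like amount, so regions near 0 change side while 22.7 and 253.5 kb of ANO2 stay on theirs.

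Among the 18 remaining regions of the 4 genes, 5 were listed in both BT-named libraries and 1 Control-named library, and 1 in both Control-named libraries and 1 BT-named library. Of those in a single library, 5 were in BT-named replicate 1, 2 in BT-named replicate 2, 2 in Control-named replicate 1 and 3 in Control-named replicate 2. The same combinations were not counted over all regions, and the contrast between the pairs chose the genes, so nothing is read from these counts. The tallest of the 18 was at 402.9 kb of TMEM178B, with peak values of 115 and 83 in the BT-named libraries, 44 in Control-named replicate 2 and no listing in Control-named replicate 1.

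By number of BT-only regions, TMEM178B, ANO2 and ARHGAP15 shared rank 10 among all gene names and GSG1L had rank 15. In all, 32 names had at least 4 such regions, and among these GSG1L had the highest share of BT-only regions (40% of its regions), TMEM178B the second (38.5%), ANO2 the third (31.2%) and ARHGAP15 the fifth (27.8%). PHKA1, a phosphorylase kinase subunit gene, lay between with 30.8%, and KIAA1324L came next after ARHGAP15 with 25%. The genes most like each of the 4 were found by the sum of absolute differences in the numbers of BT-only, Control-only, shared and other regions. For TMEM178B these were PHKA1 (a sum of 2), ANO2 (3) and CACNA1B (3), and for ANO2 they were TMEM178B (3), CACNA1B (4) and DTNA (4). For GSG1L they were ANXA1, B3GALT1 and CADPS (2 each), while for ARHGAP15 the nearest, CHST3 and NUP93, differed by 6 and CALN1 by 7. Ties were broken by name. At or under the largest sum given lay 4 genes for TMEM178B, 7 for ANO2, 6 for GSG1L and 8 for ARHGAP15, so other genes were as like. These likenesses compare small counts over 4 libraries and were drawn from the contrast that chose the genes.

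Relatives and partners of the 4 genes held BT-only regions at a lower share when pooled. Of the 32 names looked for, 28 were in the table, and 10 of their 211 regions (4.74%) were BT-only, 30 (14.2%) Control-only and 119 (56.4%) shared by all libraries, close to the shares over all regions. The anoctamins had 4 BT-only and 10 Control-only regions of 80 in all, with 1 BT-only region each at ANO1, ANO3, ANO4 and ANO10. AMPA receptor subunits and their auxiliary proteins had 4 and 12 of 70, and GRIA3, a subunit gene, had 7 of these Control-only regions. The relatives of ARHGAP15 (ARHGAP9, ARHGAP12 and ARHGAP27) and the Rac genes had 0 and 3 of 34. The relatives of TMEM178B had 2 and 5 of 27. Of these TMEM178A, its paralog, had 0 BT-only and 4 Control-only regions of 17, whereas TMEM114 had 2 BT-only and 1 Control-only of 6. Like TMEM114, GRIA4, an AMPA receptor subunit gene with 1 BT-only region of 2, had a high share on few regions.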

How the data were processed

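Paired reads of 42 nt from 4 ATAC-seq libraries were aligned by the authors, as the labels and methods state, with BWA to cattle genome UMD3.1, and intervals were called with MACS2. The submitters' processing notes also name Trim Galore 0.4.1. The deposited table lists each library's intervals with signal values (peak value, average value) of unstated normalization and the authors' annotation of genes and CpG islands. Starts, which count from 0 there, are given counting from 1. All columns of per-sample values could be matched to a library.

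Intervals naming a gene at any listed distance were taken, intervals overlapping by at least 1 bp were merged over all libraries, and each region was classed by the libraries listing it. "BT-only" and "Control-only" mean listed in both libraries of that pair and in neither of the other. For the 65892 regions listed in all 4, log2(average value + 1) was fitted with limma 3.58.1 in R 4.3.3 (trended, robust, Benjamini-Hochberg over all regions, threshold 0.05, two-sided). Several intervals of 1 library in a region gave their highest value. The code was tested on simulated data. The p-values measure the spread between these libraries only. Tables and figures were made with Python 3.11.15 and matplotlib 3.10.9.

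The members, lists and tests were chosen with earlier results of these data known. Regions named one by one were, for each gene, that nearest the start, the 3 tallest BT-only, the tallest Control-only, the tallest shared, and the shared ones with the largest differences. Others named were chosen after their values were seen. Alternatives were a 100 bp overlap, a peak value of at least 40, intervals inside the gene only, median centring, quantile normalization, a pseudocount of 5, peak values, a mean average value of at least 30, length-weighted means, a replicate block, plain variance and leaving out each library. No sequence of the UMD3.1 genome was used here, and 1 immune marker is not reported here by name.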

Additional observations from a re-analysis of the deposited data

How the results depend on the processing

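Of the counts by list, the 19 BT-only regions fell to 5 at a peak value of at least 40, and were 18 with merging at 100 bp. Leaving out 1 library gave 20 to 24, while the BT-only share over all regions rose as well, from 4.51% to between 5.975% and 7.819%. Control-only regions ran from 5 to 10 and regions of all libraries used from 11 to 17 over these alternatives. Over all regions, the shares of these 2 classes ran from 13.06% to 19.09% and from 56.69% to 61.42%. For the shared regions of the 4 genes, the median log2 difference of -0.23 became 0.14 after median centring and 0.15 after quantile normalization. It ran from -0.33 to -0.033 when 1 library was left out. Over all shared regions the median moved as well, from -0.24 to 0.13 after median centring and 0.052 after quantile normalization. With 1 library left out, that median ran from -0.31 to -0.18. The 4 regions called lower became 2 after median centring, 1 after quantile normalization and 2 with plain variance. The 4 called higher became 6 after median centring and 5 after quantile normalization. Over all shared regions, the share called lower was 20.4% after median centring, 22.7% after quantile normalization and 37.5% with plain variance. The share called higher was 30.2% after median centring and 23.3% after quantile normalization. Fits without 1 library left 1 in a group, so only differences are given for them. Reversed in sign were 202.2 kb of ANO2 (0.14 after centring, 0.15 after quantile normalization) and 412.6 kb of ARHGAP15 (0.060 and 0.074). These 2 scalings move every region by construction.

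With a replicate block, 4 regions of the 4 genes were called higher and 4 lower, as without it, and over all shared regions 4833 and 26490 against 4548 and 25960. The labels do not say whether equal numbers pair the libraries. Deviations of replicate 1 from its group mean correlated at 0.03 between groups across the 65892 regions. With so few libraries, that value cannot decide whether equal numbers share a culture, day or batch. Read depth was not used here, and low peaks near the lowest listed value limit every statement on a region that a list lacks.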

Other observations

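By number of BT-only regions, the leading names of the table were mostly rich in every class. The transfer RNA names TRNAE-UUC, TRNAC-GCA, TRNAC-ACA and TRNAG-CCC, which stand for many near-identical copies, had 9, 8, 6 and 6 BT-only regions against 27, 24, 5 and 39 Control-only regions. KAZN, a gene of a desmosome-associated protein, had 8 against 6 among 57 regions. RNF122, a ubiquitin ligase gene, had 6 against 0 among 68, and ADARB1, which encodes an RNA editing enzyme, had 6 against 1 among 77. SCHIP1 had 6 against 9 and VPREB1, a surrogate light chain gene of immature B cells, had 6 against 10. FAM19A4 and RGS6, a regulator of G-protein signaling, were chosen here after their values were seen, and each had 4 BT-only and 0 Control-only regions, among 19 and 17.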
